A study of Mus musculus with 47 samples.

Results

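The tumors described here were grown from B78-D14 melanoma cells carrying the mitochondrial DNA mutation m.12,436G>A at 60% heteroplasmy (m.12,436 60% tumors, n = 7) and were compared with control tumors (n = 4), chosen by the sample labels. The 4 control tumors are those whose label numbers are padded with zeros, and a second set of control tumors, numbered 1 to 6 without padding, was not used here. The tumors compared make up 11 of the 47 samples of the series, in which bulk RNA sequencing was run on edited and control melanoma cells and tumors. B78-D14 is an amelanotic derivative of the mouse B16 melanoma that lacks Cdkn2a. Mitochondrial base editors had changed 1 base of mt-Nd5 in the 60% cells, which are a sorted cell population and not a single clone, and the control tumors are labelled WT. The comparison asks how an untreated tumor differs in gene expression when it is grown from cells labelled with 60% heteroplasmy. The study reports that bulk tumors had somewhat lower heteroplasmy than the cells grafted.

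Every tumor was a subcutaneous fragment with no treatment, taken from a young adult male C57BL/6 mouse after syngeneic grafting of the cells in Matrigel, and nothing in the labels ties 2 tumors to 1 animal. All groups shared the Cdkn2a loss, the mouse strain and the graft site. Tumors of the same cells at 40% heteroplasmy (m.12,436 40% tumors, n = 7) were fitted together with them and their values are given beside some results. A bulk fragment holds melanoma cells, leukocytes, vessels and stroma, so fewer cells of a type and less RNA per cell cannot be told apart in any result below.

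mt-Nd5 encodes a core subunit of respiratory complex I, the enzyme that passes electrons from NADH to ubiquinone and pumps protons across the inner mitochondrial membrane. It is 1 of 13 mRNAs made from mtDNA, and the other subunits of complex I come from nuclear genes. Cells hold many mtDNA copies, and heteroplasmy is the share of them that carries a mutation. In tumors, interferons made by leukocytes and stressed cells act on both tumor and immune cells through STAT and IRF transcription factors, while the genes of mitosis follow the share of cells in division.

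The edited base lies in mt-Nd5 (ENSMUSG00000064367, chrM:11742-13565 on the plus strand of GRCm39), which has no introns. The reference around it is shown because it is the change that the editing was designed to make. The study made the edited cells by single or repeated transfection and sorting, and reports a limited off-target mutation profile. The labels name no separately edited lines among the mutant tumors, so these tumors are replicates of grafting and not of editing. Whether a difference below comes from the base change or from the history of the edited cells was not tested. The codon at chrM:12435-12437, number 232 of the gene, is in capitals and encodes tryptophan in the mitochondrial code, and the change G12436A, with positions counted from the start of mtDNA, makes it a stop codon.
mt-Nd5 reference, chrM:12416-12456: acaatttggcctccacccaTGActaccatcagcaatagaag

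The deposited counts do not show the base itself, so heteroplasmy was taken from the labels. The level of mt-Nd5 RNA was 859.6, 1231, 854 and 1091 counts scaled to library size (CPM) in control tumors 1 to 4 and 985 to 1295 (median 1125) in the 60% tumors. These ranges overlap, and the difference did not pass the test, with log2 fold change 0.16 (SE 0.12, edgeR adjusted p = 0.532). As a share of reads on the 13 mtDNA-encoded mRNAs, mt-Nd5 took 6.88%, 8.67%, 7.17% and 8.92% in the control tumors and 8.20% to 9.25% (median 9.09%) in the 60% tumors, a difference of 0.976 percentage points (two-sided exact permutation test over 330 splits, p = 0.0576, the smallest possible p being 0.00303). The 13 mRNAs together took 1.28% ± 0.142 of all counts in control tumors and 1.26% ± 0.128 in 60% tumors (SD, n = 4 and 7, exact permutation p = 0.906). Of the 13, 4 had an estimate above 0 and 9 below it, with a median log2 fold change of −0.05 and no gene past the threshold.

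Total counts lay between 19264505 and 31218475 in the 11 tumors. Leukocyte markers varied within both groups, with a mean log2 CPM over 66 macrophage, T cell and NK cell markers, used below as a leukocyte score, of 2.59, 3.17, 2.201 and 2.49 in control tumors 1 to 4 and 2.21 to 3.80 (median 3.15) in the 60% tumors. Cdkn2a, which the line lacks, had 6 to 18 reads in control tumors and 3 to 11 in 60% tumors, and Mitf, the lineage factor of melanocytes, had 484 to 557 and 448 to 727. Genes of pigment cells, of which an amelanotic line makes little, had at most 3 reads in any 60% tumor (Dct, Tyr, Tyrp1, Mlana and Sox10), but not in control tumors 2 and 3. Dct had 102 and 798 reads there, 1 and 0 in control tumors 1 and 4, and 0 in every 60% tumor. Tyr had at most 1 read in any of the 11 tumors. Muscle genes differed between fragments, Acta1 ranging from 5 to 2719 reads in control tumors and from 3 to 4015 in 60% tumors. Control tumor 3 had the lowest leukocyte level and the most Dct and Sox10 reads among the controls, and calls lost without it are given as such. The keratinocyte markers Krt5 and Krt14 and the B cell marker Ms4a1 had at most 7 reads in any of the 11.

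Of 16213 genes tested, 374 passed an adjusted p of 0.1 (2.31%), 156 of them higher in the 60% tumors (0.962%) and 218 lower (1.34%). These shares are the background for every count of list members called below. At an unadjusted p under 0.05 there were 2645. Most of these changes were small, since 288 of the 374 had a log2 size under 1. Among the 86 with a larger size, 26 were higher and 60 lower. The levels of the 2 groups did not overlap in 660 genes (4.07%), 229 higher (1.41%) and 431 lower (2.66%). Without control tumor 3 the count fell to 66 genes (18 higher, 48 lower), all of them among the 374, and without control tumor 1 it fell to 125. Without control tumor 2 or 4 it was 716 or 724, and leaving out a 60% tumor gave 186 to 451 genes. Across the 11 fits that each left out 1 tumor, 59 genes were called every time (15 higher, 44 lower) and none of the 374 changed sign.

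**Figure D1:**
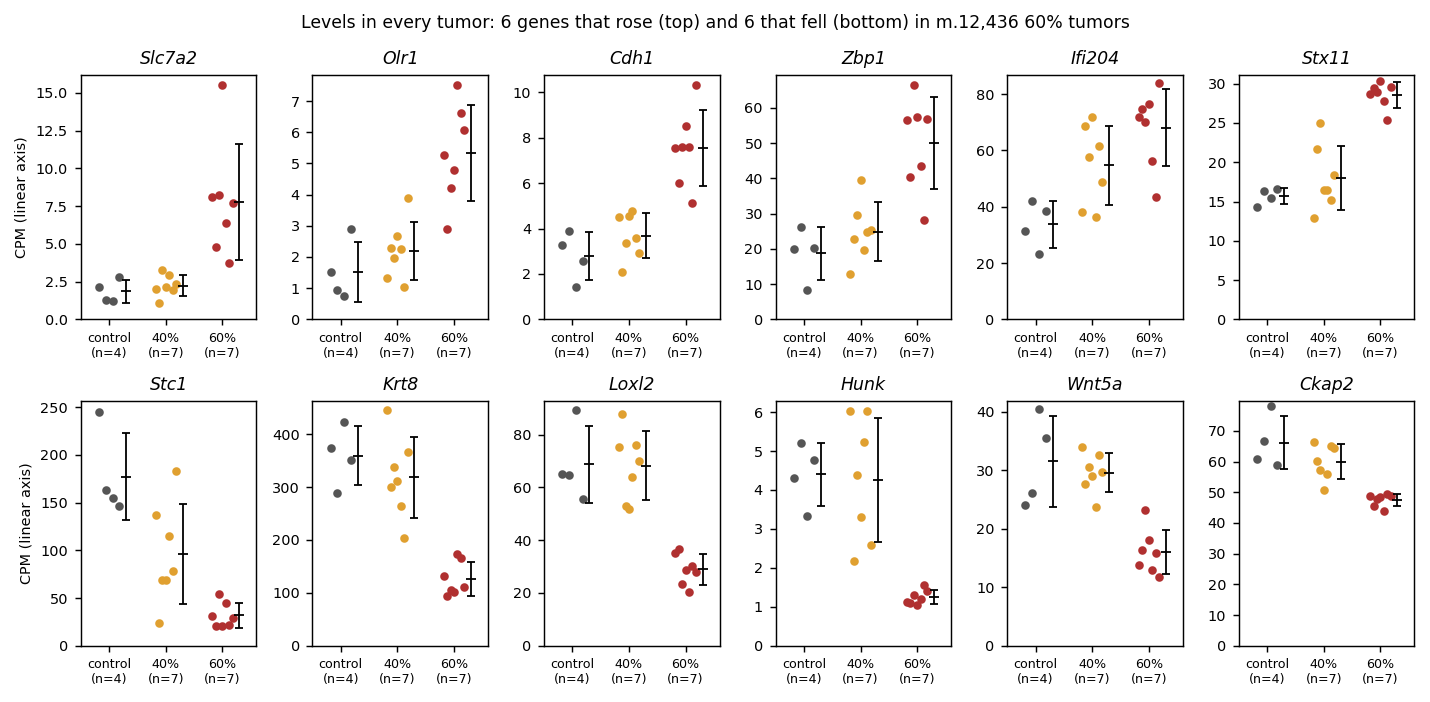
Levels in CPM (linear axes from 0) of 6 genes that rose and 6 that fell in m.12,436 60% tumors, with 1 point a tumor and the mean ± SD as a bar. The 7 tumors at 60% lie apart from the 4 control tumors in all 12 panels, and the 40% tumors overlap the controls in every panel.

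The 12 rises and 12 falls of largest size among well expressed protein-coding genes with separate ranges are described first, by function. The largest rise of these was in an arginine transporter. Slc7a2 (ENSMUSG00000031596, chr8:41315431-41375345) brings arginine and other cationic amino acids into cells, and is induced in activated macrophages. Its level was 2.11, 1.299, 1.19 and 2.801 CPM in control tumors and 3.72 to 15.5 (median 7.69) in 60% tumors. The groups were separate, 1 tumor at 60% stood well above the others, and the difference was log2 fold change 2.09 (SE 0.37, edgeR adjusted p = 0.00922). Ass1 (chr2:31352181-31410862), argininosuccinate synthase, which rebuilds arginine from citrulline, rose from 65.5, 60.2, 66.7 and 84.3 CPM to 96.2 to 144 (median 116). The Ass1 ranges did not meet, with log2 fold change 0.78 (SE 0.14, edgeR adjusted p = 0.00922), and both genes passed in each of the 11 fits that left out a tumor. Gamt, which makes creatine from an arginine product, fell from 27.5, 23.7, 23.1 and 21.9 CPM to 16.2 to 20.001 (median 17.1), with log2 fold change −0.44 (SE 0.08, edgeR adjusted p = 0.0136). Of the 24 arginine and urea cycle genes tested, these were the 3 that passed, and the list's median was −0.10 against −0.003 for all genes.

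Olr1 (chr6:129462207-129484128), a receptor for oxidized LDL on macrophages and endothelium, was at 1.53, 0.933, 0.757 and 2.89 CPM in control tumors and 2.896 to 7.501 (median 5.28) in 60% tumors, with log2 fold change 1.83 (SE 0.38, edgeR adjusted p = 0.0261). The lowest 60% tumor lay just above control tumor 4, and without control tumor 3 Olr1 no longer passed (edgeR adjusted p = 0.139). It was the only 1 of 16 scavenger receptors to pass, and their median was −0.07. Stx11 (chr10:12813953-12840259), a syntaxin needed for granule release by cytotoxic lymphocytes, was at 14.3, 16.4, 15.4 and 16.6 CPM and 25.4 to 30.3 (median 28.9). Its spread was narrow in both groups, and it rose with log2 fold change 0.87 (SE 0.13, edgeR adjusted p = 0.00328) in every fit. Plaat3, a phospholipid-modifying enzyme, rose from 13.7, 10.9, 7.21 and 15.9 CPM to 17.3 to 28.8 (median 25.2), with log2 fold change 0.98 (SE 0.21, edgeR adjusted p = 0.036), but not without control tumor 3 (edgeR adjusted p = 0.198). Dusp2, a phosphatase of activated leukocytes and 1 of the immediate early genes, rose by 0.47 on the log2 scale (SE 0.09, edgeR adjusted p = 0.0154). Klf4 was the other immediate early gene of 30 to pass, at 0.58 (SE 0.16, edgeR adjusted p = 0.0977), in a list with 23 estimates above 0 and a median of 0.13, but it passed in 2 of the 11 fits that left out a tumor.

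Cdh1 (chr8:107329941-107396880), E-cadherin, which joins epithelial cells and also occurs on some dendritic cells, was at 3.28, 3.898, 1.45 and 2.57 CPM in control tumors and 5.13 to 10.3 (median 7.61) in 60% tumors. Every 60% tumor was above every control, with log2 fold change 1.43 (SE 0.26, edgeR adjusted p = 0.0101). Lbx1, a homeobox factor of muscle precursors and spinal neurons, was at 1.66, 0.8996, 1.84 and 1.31 CPM and 2.596 to 4.82 (median 3.53), also without overlap, with log2 fold change 1.29 (SE 0.28, edgeR adjusted p = 0.0331). Fbxo41, an F-box protein known from neurons, rose from 1.75, 1.73, 1.15 and 1.54 CPM to 2.49 to 3.76 (median 2.99), with log2 fold change 0.99 (SE 0.23, edgeR adjusted p = 0.0412), and did not pass without control tumor 3. Of 12 epithelial genes tested, 9 had an estimate below 0 and the median was −0.23. Cdh1 rose, while Krt8 and Itgb4, described below, fell. Their summed level was 850 to 1134 CPM in control tumors and 598 to 804 in 60% tumors, without overlap, a sum in which Krt8 is a large share, whereas their mean log2 CPM was 4.23 to 4.30 and 3.96 to 4.36, with overlap.

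Interferon-stimulated genes lay higher in the 60% tumors as a whole list, although few passed 1 by 1. All 48 type I interferon-stimulated genes tested had an estimate above 0, with a median log2 fold change of 0.85, and 4 passed (8.33%, beside 0.962% of all genes called higher). Zbp1, a sensor of Z-form nucleic acids that can start cell death, was at 20.04, 26.2, 8.197 and 20.4 CPM in control tumors and 28.3 to 66.5 (median 56.6) in 60% tumors, with log2 fold change 1.42 (SE 0.32, edgeR adjusted p = 0.0414). Ifi204, a cytosolic DNA sensor of the PYHIN family, was at 31.2, 42.1, 23.1 and 38.6 CPM and 43.5 to 83.9 (median 71.7), with log2 fold change 1.01 (SE 0.22, edgeR adjusted p = 0.0331). For both genes the lowest 60% tumor lay just above the highest control, which was control tumor 2. Samd9l, which restrains translation and cell growth, passed at 0.63 (SE 0.16, edgeR adjusted p = 0.0693) and Adar, which edits adenosine to inosine in double-stranded RNA, at 0.45 (SE 0.12, edgeR adjusted p = 0.0683), both with overlapping ranges.

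The mean log2 CPM of the 48 genes was 4.50, 5.11, 3.98 and 4.41 in control tumors 1 to 4 and 4.54 to 5.86 (median 5.37) in the 60% tumors. Control tumor 2 lay within the range of the 60% tumors, and it also held the most leukocyte RNA among the controls. None of the 48 passed without control tumor 1 or without control tumor 3, when the medians were 0.80 and 0.66, while 31 passed with DESeq2. With the leukocyte marker score as a covariate 2 passed, 47 estimates stayed above 0 and the median was 0.43. The interferon-gamma GTPases, which attack the vacuoles of intracellular pathogens, had 16 of 16 estimates above 0 and a median of 1.18, or 0.51 with that covariate. None of the 16 passed in edgeR, 9 passed with DESeq2, and the 2 smallest p values belonged to Tgtp1 at 1.76 (SE 0.59, edgeR adjusted p = 0.154) and Gvin1 at 1.26 (SE 0.41, edgeR adjusted p = 0.143).

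**Figure D2:**
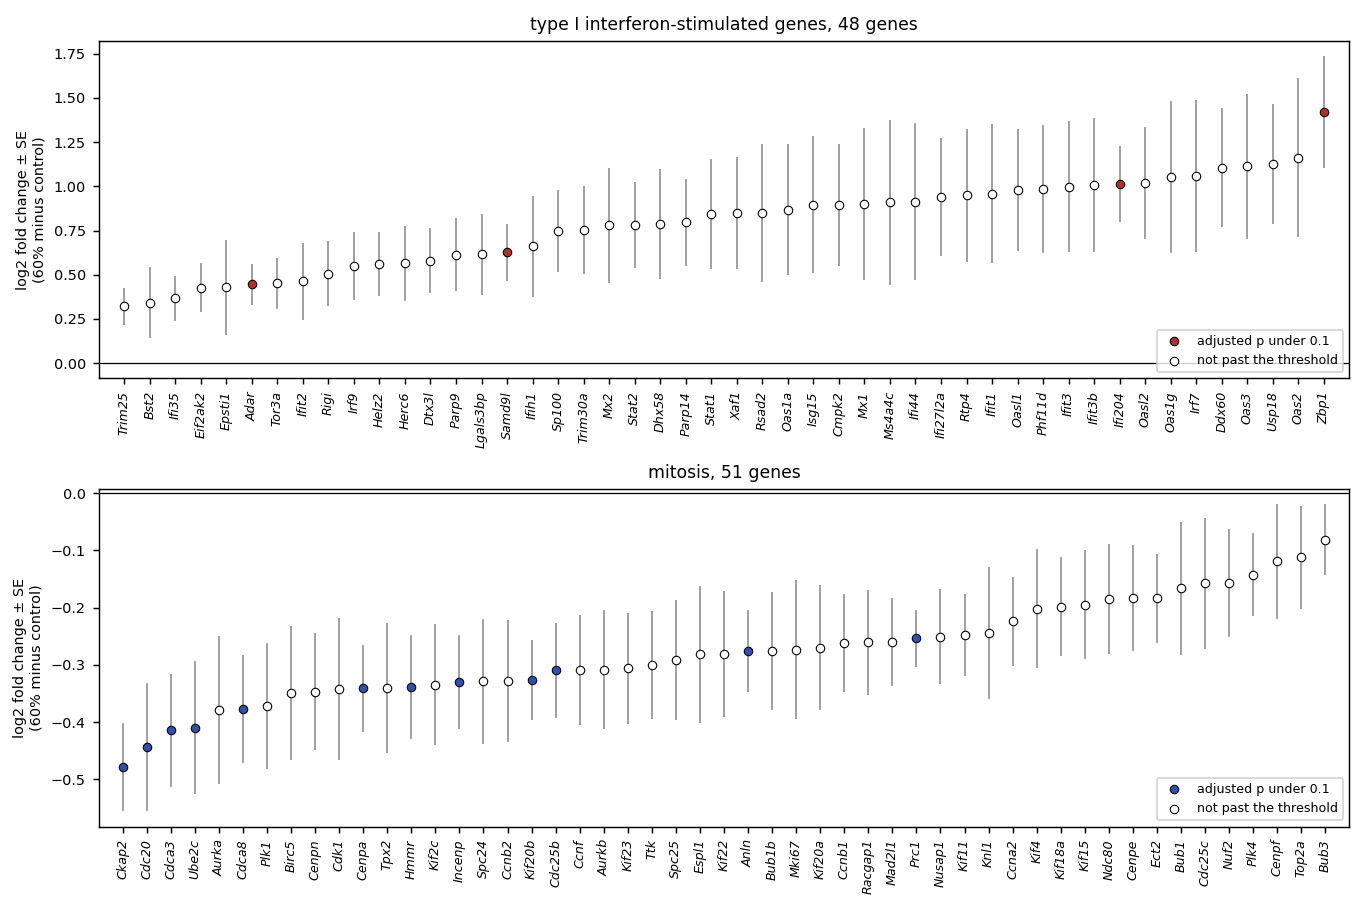
Log2 fold change of 60% minus control tumors with its SE for the 48 type I interferon-stimulated genes (top) and the 51 mitosis genes (bottom), each gene 1 point, filled where the adjusted p was under 0.1. All 48 points of the upper panel lie above 0 with 4 filled, and all 51 of the lower panel lie below 0 with 12 filled.

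Interferon acts on many of these genes through the interferon-stimulated response element, searched as GAAA, any 2 bases and GAAA again, or its complement. RefSeq promoter sequences of GRCm38.p6, 250 bases before to 50 after each start, were searched on both strands. The element was in 14 of the 34 interferon-stimulated genes with a promoter in the table (41.2%), in 9 of 9 interferon-gamma GTPases and in 1079 of all 27025 genes (3.99%). Samd9l and Adar, which passed, had no match of these letters in the window, and Zbp1 and Ifi204 have no entry. The 250 bases upstream of Ddx60 (chr8:62380871-62381120 in GRCm39, plus strand) and Stat2 (chr10:128106117-128106366, plus strand), the genes of the list with the smallest p among those holding the element, are shown with its matches in capitals.
Ddx60: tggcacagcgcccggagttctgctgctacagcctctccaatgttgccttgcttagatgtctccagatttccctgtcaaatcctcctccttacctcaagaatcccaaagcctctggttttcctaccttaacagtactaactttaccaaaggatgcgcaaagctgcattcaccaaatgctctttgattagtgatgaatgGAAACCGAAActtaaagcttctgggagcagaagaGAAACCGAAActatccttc
Stat2: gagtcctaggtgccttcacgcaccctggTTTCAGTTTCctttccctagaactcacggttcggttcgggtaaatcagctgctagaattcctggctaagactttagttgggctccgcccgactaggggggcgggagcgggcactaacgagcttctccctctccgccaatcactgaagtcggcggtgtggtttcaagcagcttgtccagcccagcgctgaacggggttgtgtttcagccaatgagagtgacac
Ddx60 holds the element at 2 places close to its start and Stat2 holds it once, on the other strand and farther upstream. Neither gene passed the threshold in the 60% tumors.

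Nucleic acid sensors, which overlap the list above, had 26 of 29 estimates above 0 and a median of 0.35. Called higher were 4 genes (13.8%, beside 0.962% of all genes). These were Zbp1, Ifi204, Adar and Irf5. Irf5, the factor that drives cytokine genes below toll-like receptors in macrophages, rose by 0.63 on the log2 scale (SE 0.16, edgeR adjusted p = 0.0614). None of the 4 passed without control tumor 1 or without control tumor 3. Ifi211, a neighbour of Ifi204 in the PYHIN family and among the 12 largest rises, was at 31.9, 39.7, 29.7 and 38.5 CPM in control tumors and 43.1 to 75.2 (median 61.9) in 60% tumors, with log2 fold change 0.77 (SE 0.17, edgeR adjusted p = 0.0404) and no overlap. It did not pass without either of those control tumors. Near-identical PYHIN genes on chromosome 1 may share reads, so their split is uncertain.

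Of 18 leukocyte integrins and adhesion genes, 13 had an estimate above 0 and the median was 0.34. The 2 that passed, both higher, were Itgam and Itgb2 (11.1%, beside 0.962% of all genes called higher). Itgam, the CD11b chain of a beta-2 integrin, was at 55.6, 62.4, 69.2 and 66.7 CPM in control tumors and 73.2 to 91.3 (median 82.7) in 60% tumors. The groups were separate and the rise was 0.38 on the log2 scale (SE 0.08, edgeR adjusted p = 0.0261). It was lost only without control tumor 1 (edgeR adjusted p = 0.114). Its partner chain Itgb2 was at 119.9, 142, 111 and 199.8 CPM and 179 to 249.5 (median 216), with log2 fold change 0.61 (SE 0.16, edgeR adjusted p = 0.0726), overlapped through control tumor 4, and did not pass without control tumor 1 or without control tumor 3.

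Among receptors, Csf2ra for GM-CSF rose by 0.67 (SE 0.17, edgeR adjusted p = 0.0614) and Il2rg, the chain common to several interleukin receptors, by 0.58 (SE 0.16, edgeR adjusted p = 0.0808), the 2 that passed of 35 cytokine receptors. That is 5.71% of the list, beside 0.962% of all genes called higher. Clec5a, a C-type lectin of myeloid cells, and Card9, an adaptor below such lectins, rose by 0.56 and 0.60 (edgeR adjusted p = 0.0749 and 0.0995), 2 of 27 toll-like and C-type lectin receptor genes. Cd24a was the only 1 of 22 dendritic cell markers, at 0.70 (SE 0.16, edgeR adjusted p = 0.0435). Without control tumor 1, and again without control tumor 3, none of Csf2ra, Il2rg, Clec5a, Card9 and Cd24a passed.

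More genes known from myeloid cells were found among the 374 and grouped after their values were seen, so the groups are descriptions only. Of the 15 genes called in these 4 groups, all higher, only Naip2 and Lsp1 passed without control tumor 3, and only these 2 passed in all 11 fits that left out a tumor. In 13 inflammasome and caspase genes, 12 had an estimate above 0, 6 passed as higher and the median was 0.41. The Naip genes encode receptors that detect bacterial flagellin and secretion needles and call on caspase-1. Naip2 was at 19.7, 20.3, 12.1 and 23.4 CPM in control tumors and 26.96 to 34.4 (median 30.8) in 60% tumors, with log2 fold change 0.69 (SE 0.14, edgeR adjusted p = 0.0261), and did not overlap. Naip6, among the 12 largest rises, was at 3.55, 4.56, 3.06 and 4.67 CPM and 6.82 to 9.44 (median 8.62), with log2 fold change 1.08 (SE 0.21, edgeR adjusted p = 0.018), and did not pass without control tumor 3. Naip5 rose by 0.67 on the log2 scale, but Naip2, Naip5 and Naip6 are close paralogs side by side on chromosome 13 and may trade reads. Casp1, Casp4 and Casp12, neighbours on chromosome 9, rose by 0.67, 0.69 and 0.51, whereas Nlrc4, through which the Naip receptors act, had an estimate of 0.04 and Il1b one of 0.38, neither past the threshold.

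Of 6 genes of the phagocyte oxidase, which makes superoxide, Ncf4 was among those that rose, by 0.50 on the log2 scale (edgeR adjusted p = 0.0888), and the median was 0.42. Of 5 leukotriene genes, Alox5ap rose from 57.3, 74.7, 71.04 and 78.8 CPM to 82.99 to 107 (median 96.2), with log2 fold change 0.42 (SE 0.09, edgeR adjusted p = 0.0353), and Ltb4r1, the leukotriene B4 receptor, by 0.83. In 9 leukocyte genes, most of them of actin signaling, Dock2, Nckap1l, Fgr, Lsp1 and Srgn passed as higher and the median was 0.57. Srgn is not an actin signaling gene. Lsp1, an actin-binding protein of leukocytes, was at 156, 192, 175 and 216 CPM in control tumors and 238 to 307 (median 283) in 60% tumors, with log2 fold change 0.60 (SE 0.11, edgeR adjusted p = 0.0143), and did not overlap. Ptprc, the CD45 antigen of all leukocytes, was at 68.2, 95.8, 51.02 and 76.97 CPM and 81.3 to 154 (median 110.2), overlapped, and had log2 fold change 0.61 (SE 0.19, edgeR adjusted p = 0.135). Neutrophil and monocyte markers had 10 of 16 estimates above 0 with a median of 0.17 and none called.

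Lymphocyte and antigen presentation genes lay higher in estimate without any call. The 22 T cell markers were all above 0, with a median of 0.76, and the 20 NK cell and cytotoxic markers were too, with a median of 0.71. The mean log2 CPM of the T cell markers was 0.85, 1.84, 0.01 and 0.68 in control tumors 1 to 4 and 0.34 to 2.57 (median 1.48) in 60% tumors, so the groups overlapped. MHC class II genes had 13 of 13 above 0 (median 0.77) and MHC class I genes 22 of 23 (median 0.45). With the leukocyte score as a covariate, class II had 10 of 13 above 0 (median 0.05) and class I 22 of 23 (median 0.14). Cd74, the class II invariant chain, was at 481, 668, 153 and 277 CPM in control tumors and 274 to 1142 (median 649) in 60% tumors, with log2 fold change 0.89 (SE 0.53, edgeR adjusted p = 0.425).

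Checkpoint ligands and receptors had 24 of 26 estimates above 0 and a median of 0.46, none called. With the leukocyte score as a covariate 20 of 26 were above 0 and the median was 0.15. Cd274, which encodes PD-L1, was at 12.1, 12.3, 9.51 and 12.7 CPM in control tumors and 11.1 to 29.9 (median 22.96) in 60% tumors. It was above every control in 6 of the 7, with log2 fold change 0.83 (SE 0.27, edgeR adjusted p = 0.142). Chemokines were mixed, with 19 of 28 above 0 (median 0.29), cytokines had 23 of 27 above 0 (0.34), and complement genes 14 of 18 (0.27). Pax5, a B cell factor, was the only gene of the B cell list to pass and it fell, with log2 fold change −1.12 (SE 0.23, edgeR adjusted p = 0.0256), in tumors where Ms4a1 had at most 7 reads. Endothelial markers leaned the other way, with 22 of 23 estimates below 0 (median −0.19) and none called, and 8 of 8 erythroid and platelet markers were below 0 (median −1.40), also none called.

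**Figure D3:**
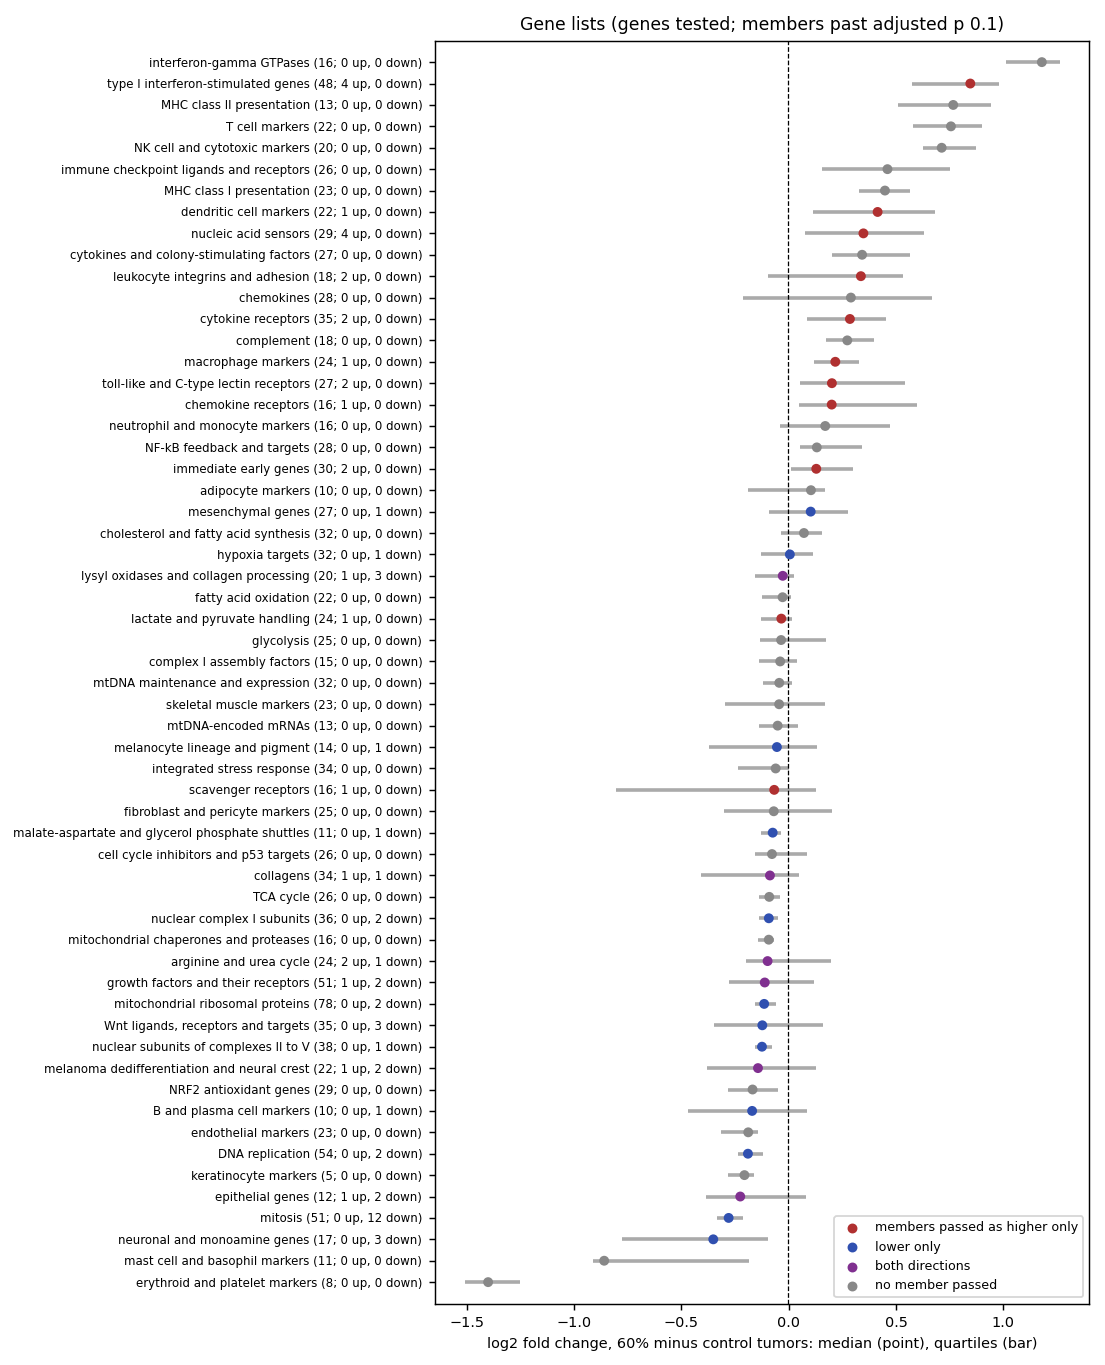
Median (point) and quartiles (bar) of the log2 fold change of 60% minus control tumors in 58 gene lists, with the genes tested and the members past the threshold in each direction beside the name. The dashed line is the median of all genes tested, −0.003. The interferon-gamma GTPases (1.18), type I interferon-stimulated genes (0.85), MHC class II genes (0.77), T cell markers (0.76) and NK cell markers (0.71) lie farthest to the right, and the erythroid, mast cell, neuronal and mitosis lists farthest to the left.

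Mitosis genes had lower estimates in the 60% tumors across the whole list. All 51 tested had an estimate below 0, with a median of −0.28 against −0.003 for all genes. Of these, 12 passed (23.5%, beside 1.34% of all genes called lower), and 24 did not overlap between the groups, beside 2.66% of all genes. The mean log2 CPM of the 51 genes was 5.89, 5.93, 6.18 and 5.96 in control tumors 1 to 4 and 5.56 to 5.84 (median 5.71) in 60% tumors, without overlap. No member that passed fell by more than 0.48 on the log2 scale.

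The 12 genes span the course of division. Cdca8 and Incenp belong to the chromosomal passenger complex with Aurora B, Cenpa marks the centromere, and Cdc20 and Ube2c drive the anaphase-promoting complex that destroys cyclin B. Ckap2 (chr8:22658164-22675852), a spindle microtubule protein, was at 60.9, 66.7, 78.1 and 59.05 CPM in control tumors and 44.01 to 49.4 (median 48.3) in 60% tumors, with log2 fold change −0.48 (SE 0.08, edgeR adjusted p = 0.00535). It passed in each of the 11 fits that left out a tumor. Cdc20 was at 140.3, 152, 166 and 148 CPM and 90.4 to 130.5 (median 109.5), with log2 fold change −0.44 (SE 0.11, edgeR adjusted p = 0.0614). Prc1, which bundles the central spindle, was at 88.1, 85.8, 97.2 and 88.7 CPM and 74.4 to 78.5 (median 75.004), with log2 fold change −0.25 (SE 0.05, edgeR adjusted p = 0.0176). In each of these genes the highest 60% tumor lay under the lowest control. The other falls ran from −0.28 for Anln, of the cleavage furrow, to −0.41 for Cdca3, with Ube2c at −0.41, Cdca8 at −0.38, Cenpa and Hmmr both at −0.34, Incenp and Kif20b both at −0.33 and Cdc25b at −0.31.

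Control tumor 3 had the highest mitosis level. Without it 1 of the 51 passed, Ckap2, with all 51 still below 0 and a median of −0.22. Without control tumor 1, 5 passed. With the leukocyte score as a covariate 5 passed and the median was −0.28, the same as without it. DNA replication genes had a median nearer to 0 than the mitosis genes, a difference that was not tested. Of 54 tested, 53 were below 0 with a median of −0.19, and Orc6 and Gins3, of the origin recognition and GINS complexes, passed at −0.40 and −0.40 (edgeR adjusted p = 0.0296 and 0.0565). Neither of these 2 passed without control tumor 1 or without control tumor 3. Birc5, another member of the passenger complex, was at −0.35 (SE 0.12, edgeR adjusted p = 0.149). Cell cycle inhibitors and p53 targets had 18 of 26 below 0, a median of −0.08 and none called.

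Genes of late cell cycle are known for 2 promoter elements, the cell cycle genes homology region (CHR, searched as TTTGAA or TTCAAA) and CCAAT boxes (CCAAT or ATTGG), bound by the DREAM complex and by NF-Y. A TTTGAA match can share bases with an interferon-stimulated response element. Of the 44 mitosis genes with a promoter in the table, 34 (77.3%) held the first, 32 (72.7%) the second and 28 (63.6%) both, against 20.2%, 41.1% and 7.97% of all 27025 genes. Of the 45 DNA replication genes matched, 8 (17.8%) held the CHR letters. Among the 12 mitosis genes that passed, 11 matched, 10 with the CHR letters and 9 with a CCAAT box. The 250 bases upstream of Cdc20 (chr4:118294541-118294790 in GRCm39, minus strand), Ube2c (chr2:164611599-164611848, plus strand) and Ckap2 (chr8:22675836-22676085, minus strand) are shown as members that fell together, with both elements in capitals.
Cdc20: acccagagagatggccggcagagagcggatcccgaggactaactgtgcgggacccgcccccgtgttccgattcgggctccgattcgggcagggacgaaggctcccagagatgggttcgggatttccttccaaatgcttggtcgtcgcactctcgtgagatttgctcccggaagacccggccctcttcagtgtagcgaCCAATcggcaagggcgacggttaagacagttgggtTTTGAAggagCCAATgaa
Ube2c: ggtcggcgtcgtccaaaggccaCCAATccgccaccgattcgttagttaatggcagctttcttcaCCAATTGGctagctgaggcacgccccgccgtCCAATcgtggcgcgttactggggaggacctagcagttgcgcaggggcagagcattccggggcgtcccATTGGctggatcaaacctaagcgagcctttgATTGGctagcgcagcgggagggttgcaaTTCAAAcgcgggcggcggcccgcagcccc
Ckap2: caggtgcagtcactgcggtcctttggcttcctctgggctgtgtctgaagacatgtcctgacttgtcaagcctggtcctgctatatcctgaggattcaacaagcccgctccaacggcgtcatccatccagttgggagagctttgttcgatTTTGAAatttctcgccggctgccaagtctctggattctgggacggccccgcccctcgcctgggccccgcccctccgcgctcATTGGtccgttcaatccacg
In Cdc20 the CHR letters stand between 2 CCAAT boxes near the start, in Ube2c 1 match stands downstream of 6 CCAAT boxes counted on both strands, and in Ckap2 the CHR letters stand upstream of a single box. A match of letters describes the sequence and is not a measured binding site.

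The 12 falls named by size, among well expressed genes with separate ranges, were led by Stc1. This gene (ENSMUSG00000014813, chr14:69266575-69279253), a secreted stanniocalcin and hypoxia target, was at 245, 163, 155 and 146 CPM in control tumors and 20.5 to 54.03 (median 29.4) in 60% tumors. Its groups were far apart and the fall was log2 fold change −2.48 (SE 0.39, edgeR adjusted p = 0.00702). Stc1 was the only 1 of 32 hypoxia targets to pass, and the list's median was 0.00. Krt8 (chr15:101905133-101912917), a keratin of simple epithelia, was at 373, 289, 424 and 351 CPM and 94.3 to 174 (median 110.2), a fall with log2 fold change −1.52 (SE 0.19, edgeR adjusted p = 0.00134). Hunk, a kinase of the SNF1 family, was at 4.31, 5.197, 3.32 and 4.76 CPM and 1.05 to 1.55 (median 1.21), with log2 fold change −1.81 (SE 0.24, edgeR adjusted p = 0.00134). Stc1, Krt8 and Hunk passed in every fit that left out a tumor.

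Loxl2 (chr14:69846209-69933283), a lysyl oxidase that cross-links collagen, was at 65.1, 64.8, 89.4 and 55.7 CPM in control tumors and 20.5 to 36.7 (median 28.7) in 60% tumors. The highest 60% tumor lay well below the lowest control, with log2 fold change −1.25 (SE 0.16, edgeR adjusted p = 0.00134). Pcolce and Pcolce2, which enhance the trimming of procollagen, fell, with log2 fold changes of −0.31 and −1.08 (edgeR adjusted p = 0.0356 and 0.0614), and P3h2, a prolyl hydroxylase of collagen, rose by 0.71 (edgeR adjusted p = 0.0704). The other 16 of these 20 genes did not pass, and the list's median was −0.03. Of 34 collagen genes, Col14a1 rose and Col24a1 fell, with log2 fold changes of 0.51 and −1.10 (edgeR adjusted p = 0.0953 and 0.0495). Of these 6 matrix genes only Loxl2 passed without control tumor 1 or without control tumor 3. S100a4, a calcium-binding protein often used as a mesenchymal marker, was at 335, 313, 303 and 251 CPM and 154 to 233 (median 212), with log2 fold change −0.57 (SE 0.11, edgeR adjusted p = 0.0123), and Itgb4, the integrin of hemidesmosomes, fell with log2 fold change −0.76 (SE 0.14, edgeR adjusted p = 0.0126).

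Of 35 Wnt genes, 21 had an estimate below 0 and the median was −0.12. There were 3 calls, all lower (8.57%, beside 1.34% of all genes called lower). Wnt5a (chr14:28226495-28249405), which signals without beta-catenin and is known in invasive melanoma, was at 24.04, 26.1, 40.4 and 35.5 CPM in control tumors and 11.8 to 23.1 (median 15.8) in 60% tumors, without overlap and with log2 fold change −0.98 (SE 0.16, edgeR adjusted p = 0.00624). Its relative Wnt5b was at 2.201, 1.57, 1.88 and 1.54 CPM and 0.157 to 0.806 (median 0.407), with log2 fold change −1.93 (SE 0.29, edgeR adjusted p = 0.00328), and Notum, an enzyme that inactivates Wnt proteins, was at 2.56, 2.07, 2.403 and 1.59 CPM and 0.688 to 1.52 (median 0.8505), with log2 fold change −1.20 (SE 0.28, edgeR adjusted p = 0.0417). Wnt5a and Wnt5b passed in every fit that left out a tumor, and Notum did not pass without control tumor 1 or without control tumor 3.

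Of 17 neuronal and monoamine genes, 15 had an estimate below 0 (median −0.35) and 3 passed, all lower (17.65%, beside 1.34% of all genes). Slc6a4, the serotonin transporter, was at 6.74, 4.26, 7.802 and 10.7 CPM in control tumors and 0.157 to 1.36 (median 0.537) in 60% tumors, with log2 fold change −3.57 (SE 0.43, edgeR adjusted p = 0.00133). Slc6a2, the norepinephrine transporter, was at 0.674, 1.299, 0.329 and 0.7001 CPM and 0 to 0.245 (median 0.0777), a low level, with log2 fold change −2.87 (SE 0.64, edgeR adjusted p = 0.036). Prph, a neuronal intermediate filament, was at 3.77, 3.07, 10.1 and 3.36 CPM and 0.839 to 1.43 (median 1.22), with log2 fold change −2.10 (SE 0.44, edgeR adjusted p = 0.031), and did not pass without control tumor 3 (edgeR adjusted p = 0.215). Slc6a4 and Slc6a2 passed in every fit that left out a tumor. In the list of melanoma dedifferentiation and neural crest genes, with 8 of 22 above 0 and a median of −0.14, the calls were Wnt5a, the neurturin co-receptor Gfra2 at −0.75 (edgeR adjusted p = 0.0935) and the homeobox gene Lbx1, which rose. Gfra2 passed in 3 of the 11 fits that left out a tumor and not without control tumor 1 or without control tumor 3.

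Pmel, a melanosome protein, was at 0.584, 1.47, 8.79 and 0.7001 CPM in control tumors and 0.498 to 0.787 (median 0.621) in 60% tumors and passed with log2 fold change −2.21 (SE 0.51, edgeR adjusted p = 0.0456). Its fall rested on control tumor 3. Without that tumor the estimate was −0.56 and the edgeR adjusted p was 0.559.

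The remaining large falls were Afap1l2, a Src-binding adaptor, from 3.77, 4.16, 6.62 and 4.901 CPM to 1.17 to 2.35 (median 1.78), with log2 fold change −1.55 (SE 0.35, edgeR adjusted p = 0.0417), and Angpt1, the ligand that steadies vessels through Tie2, from 19.99, 39.2, 13.2 and 26.7 CPM to 7.24 to 12.9 (median 9.67), with log2 fold change −1.31 (SE 0.27, edgeR adjusted p = 0.0307). Sspn, Mrgprf, Tspan11, Fam13c, Fhod3 and Sema3b fell too, with log2 fold changes of −1.27, −1.22, −1.21, −1.20, −1.20 and −1.16 and edgeR adjusted p values from 0.0044 for Mrgprf to 0.0505 for Fhod3. Without control tumor 3, Afap1l2, Tspan11, Fhod3 and Sema3b did not pass. Of 51 growth factors and receptors, Pdgfb rose, with a log2 fold change of 0.47, and Angpt1 and Bmp4 fell, Bmp4 with −1.08 (edgeR adjusted p = 0.0715 and 0.0748), and neither Pdgfb nor Bmp4 passed without any 1 of control tumors 1 to 3. In that list 5.88% passed, beside 2.31% of all genes.

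Mitochondrial genes in the nucleus lay slightly lower. Of 36 nuclear complex I subunits, 35 had an estimate below 0, with a median of −0.09, and Ndufs8 and Ndufv1, which carry electrons in the peripheral arm, passed. Ndufs8 was at 68.3, 67.5, 68.1 and 61.5 CPM in control tumors and 51.1 to 60.3 (median 54.8) in 60% tumors, separate by a narrow margin, with log2 fold change −0.27 (SE 0.06, edgeR adjusted p = 0.0414). Ndufv1 fell too, at −0.23 (SE 0.06, edgeR adjusted p = 0.0748), and no complex I gene passed without control tumor 1 or without control tumor 3. Subunits of complexes II to V had 36 of 38 below 0 (median −0.13) and 1 call, Cox8a at −0.27 (edgeR adjusted p = 0.0614). Mitochondrial ribosomal proteins had 70 of 78 below 0 (median −0.11), with Mrpl34 and Mrpl43 called at −0.31 and −0.19. The share called lower was 2.56% there, 2.63% in complexes II to V and 5.56% in complex I, beside 1.34% of all genes. Cox8a, Mrpl34 and Mrpl43 were also lost without either of those control tumors. The complex I median lay between 0 and that of the other complexes. Assembly factors of complex I had a median of −0.04 and no call, and Ndufb8 was at −0.24 (SE 0.08, edgeR adjusted p = 0.159).

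The cytosolic and redox side of metabolism gave few calls. Glycolysis genes were split evenly, with 12 of 25 above 0, a median of −0.04 and none called, the smallest p belonging to Pfkfb4 at 0.34 (SE 0.11, edgeR adjusted p = 0.135). Among 24 genes of lactate and pyruvate handling, Pdk4, which blocks pyruvate dehydrogenase, rose from 2.16, 2.73, 2.897 and 2.61 CPM to 3.32 to 5.79 (median 4.37), with log2 fold change 0.76 (SE 0.20, edgeR adjusted p = 0.072), and the median was −0.03. Among 11 genes of the malate-aspartate and glycerol phosphate shuttles, which carry reducing equivalents into mitochondria, Got2 fell, at −0.27 (SE 0.07, edgeR adjusted p = 0.0888) and Mdh1 was at −0.09 (edgeR adjusted p = 0.451). Neither Pdk4 nor Got2 passed without control tumor 1 or without control tumor 3. The TCA cycle (21 of 26 below 0, median −0.09), integrated stress response (25 of 34, −0.06) and NRF2 (25 of 29, −0.17) lists had no call. Hmox1, a heme-degrading NRF2 target, was at 99.6, 56.6, 355 and 259 CPM in control tumors and 65.4 to 179 (median 99.8) in 60% tumors, with log2 fold change −0.92 (SE 0.43, edgeR adjusted p = 0.302).

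The falls were densest on chromosome 8. There 51 of 860 tested genes were called lower (5.93%), against 1.09% on all other chromosomes. The stretch from 70 to 100 Mb, chosen after the values were seen, held 31 of them among 309 genes (10.03%) and 1 gene called higher. Here 234 of 309 estimates were below 0, the median was −0.14, and apart from Slc6a2 at −2.87 the calls were small, with a median of −0.28. They include genes with no common role, such as Upf1 of nonsense-mediated decay (−0.23), Abce1 of ribosome recycling (−0.27), Coq9 of coenzyme Q synthesis (−0.33) and the histone chaperone Asf1b (−0.48), beside Got2, Orc6, Gins3 and Mrpl34 of the lists above. Of the 31 genes, 5 passed without control tumor 3, Upf1 and Coq9 among them but not Abce1 or Asf1b, and 3 passed in all 11 fits that left out a tumor. Slc7a2, Cdh1 and Ckap2 lie on chromosome 8 outside this stretch.

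Taking the median over the 309 genes of each tumor's log2 deviation from the control mean, the control tumors stood at 0.05, 0.02, −0.03 and −0.03 and the 60% tumors at −0.17 to −0.09, all 7 below every control. The 40% tumors stood at −0.18 to 0.10. The stretch was chosen from these same 60% and control tumors, so their separation in it is a description and not independent evidence. Over all 860 genes of chromosome 8 the median log2 fold change over control was −0.07 at 60% and −0.06 at 40%. Chromosome 19 had 3.31% of genes called lower and chromosome 1 had 2.53% called higher, the latter including the PYHIN genes.

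**Figure D4:**
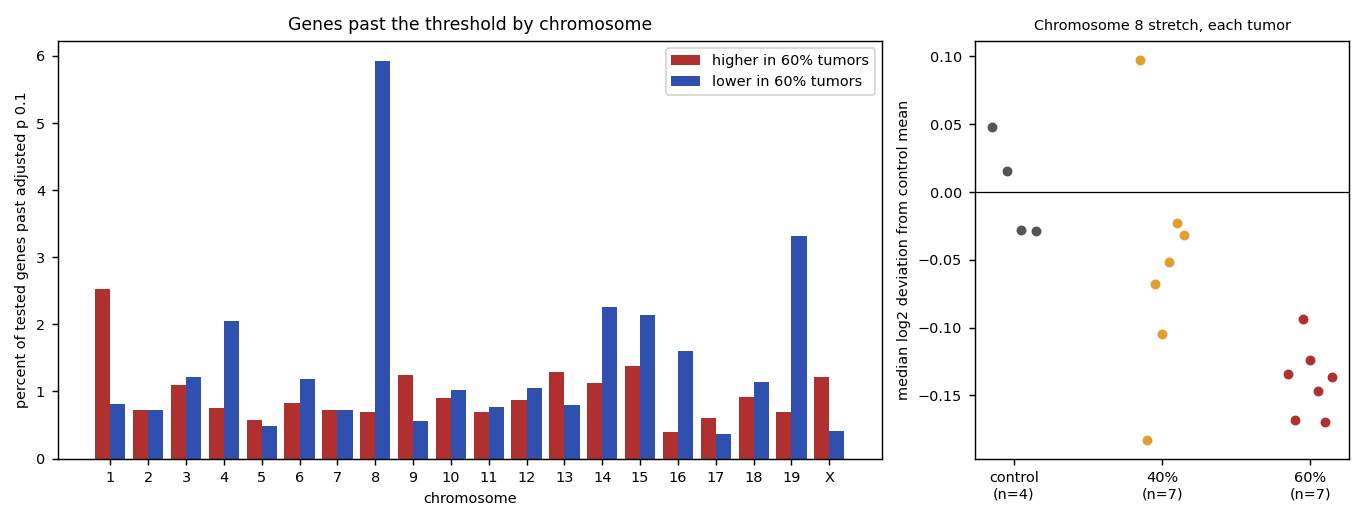
Left, percent of the tested genes of each chromosome past the threshold as higher or lower in 60% tumors, with bars from 0. Right, each tumor's median log2 deviation from the control mean over the 309 genes of the chromosome 8 stretch chosen after the values were seen. The lower bar of chromosome 8 reaches 5.93%, and all 7 tumors at 60% lie below the 4 controls.

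Tumors at 40% heteroplasmy were compared with the same 4 control tumors, so the 2 comparisons share them and are given side by side. No gene passed in 40% against control tumors with edgeR, and 825 had an unadjusted p under 0.05. Between 60% and 40% tumors, a comparison that uses the same 7 tumors at 60%, 293 genes passed (1.81%), 132 higher at 60% (0.814%) and 161 lower (0.993%). Slc7a2 had a log2 fold change over control of 2.09 at 60% and 0.30 at 40%, and 60% minus 40% was 1.79 (edgeR adjusted p = 0.00744). Stc1 was at −2.48 and −0.88, with a difference of −1.60 (edgeR adjusted p = 0.047). Krt8 was at −1.52 and −0.18 (−1.34, edgeR adjusted p = 0.00132), and Hunk and Loxl2 were close to 0 at 40%, at −0.04 and −0.01.

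In other genes the 40% value lay nearer to that at 60%, and the difference between the 2 did not pass. Mrgprf was at −1.22 and −0.94 (difference −0.28, edgeR adjusted p = 0.49), Ifi204 at 1.01 and 0.70 (difference 0.32, edgeR adjusted p = 0.44). The medians of the lists over control are given side by side, with no test between them. The interferon-stimulated genes had a median of 0.85 at 60% and 0.48 at 40%, the mitosis genes −0.28 and −0.08, and the T cell markers 0.76 and −0.04. Skeletal muscle markers had −0.05 and 0.74.

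**Figure D5:**
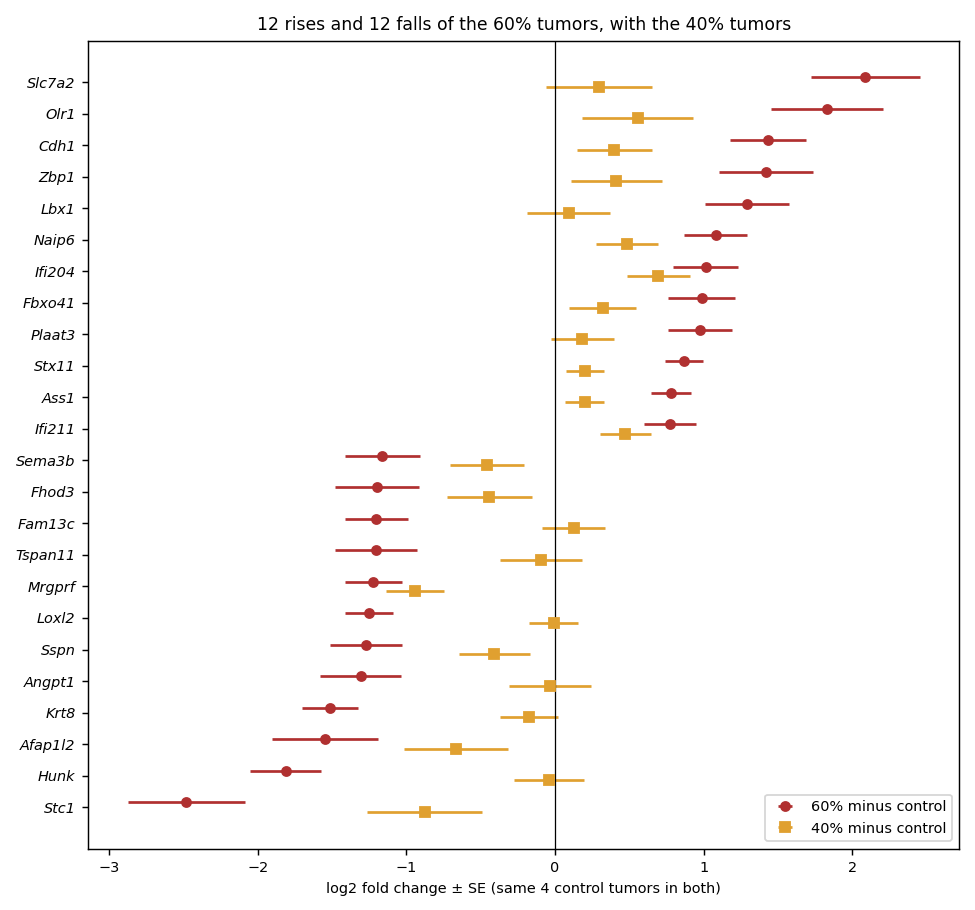
Log2 fold change with its SE of the 24 genes named by size of change, for 60% (circles) and 40% (squares) minus the same 4 control tumors. Both sets of estimates share their controls. Slc7a2 lies at 2.09 for 60% and 0.30 for 40%, and Stc1 at −2.48 and −0.88.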

How the data were processed

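RNA from tumor fragments was sequenced in bulk by a service laboratory. The authors used STAR against GRCm39 for alignment and featureCounts for counting reads per gene, and the deposited table holds raw counts, whole numbers without normalization, for 56748 genes in 47 columns. Counting by strand is not given in the sources used here, so overlapping antisense genes may share reads. Of the 47 columns, 18 were used and 29 were not. Columns headed control (with a number padded by zeros), high and low were matched to the labels by number, high and low standing for 60% and 40% in the headings of the study's source data.

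Counts of the 18 tumors (4 control, 7 at 40%, 7 at 60%) were fitted together in R 4.3.3 with edgeR 4.0.16 (TMM, filterByExpr, robust quasi-likelihood test, Benjamini–Hochberg adjustment over 16213 genes). A gene was called at an adjusted p under 0.1, the threshold of the study, and tests are two-sided. The tool was checked on simulated data. List levels are mean log2 CPM with a prior count of 2. The study used limma-voom, run here as an alternative (limma 3.58.1), beside DESeq2 1.42.0 and sva 3.50.0. Replicates are separate tumors, and the labels name no separate rounds of editing within a group. The depth, 19264505 to 31218475 counts in the 11 tumors, makes counting error small beside the spread between tumors except in genes of few reads.

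The genes, the 58 lists and the tests were chosen with earlier results of these data known. Named are mt-Nd5, the 12 largest rises and 12 largest falls past the threshold (protein-coding, mean log2 CPM of at least 1, no overlap between groups, no predicted models), list members past the threshold (or the 2 with the smallest p) and genes the study names. Groups described as put together after the values were seen fall outside this rule. Alternatives changed 1 choice at a time. Promoters came from RefSeq (GRCm38.p6) and were placed on GRCm39 by exact match. Some genes past the threshold are not reported here.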

Additional observations from a re-analysis of the deposited data

Results flagged for a closer look

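In 406 groups of 4 or 7 tumors, taken over the named genes and the list levels, 22 had a tumor at one end that lay far from the others by Dixon's ratio, where chance gives about 1 group in 20. Among control tumors the highest was far from the rest for Pmel (8.79 CPM), Prph (10.1 CPM), Ephx1 (20.8 CPM), Incenp (154.9 CPM) and the level of growth factors and their receptors (4.38 on the log2 CPM scale). The lowest was far from the rest for Irf1 (79.9 CPM), Ndufs8 (61.5 CPM), Fth1 (1294 CPM), the adipocyte markers (−1.05 on the log2 CPM scale) and the malate-aspartate and glycerol phosphate shuttles (5.70 on that scale).

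Among 60% tumors the highest was far from the rest for Slc7a2 (15.5 CPM), Pax5 (4.65 CPM), Des (43.8 CPM), Lgals7 (0.567 CPM), Hsd17b7 (39.0 CPM), Acaa2 (34.0 CPM), Prc1 (78.5 CPM) and Notum (1.52 CPM). The lowest was far from the rest for Gata2 (31.5 CPM), Supv3l1 (17.4 CPM), Fth1 (1130 CPM) and the scavenger receptors (4.60 on the log2 CPM scale). Of these genes, Slc7a2, Pax5, Prc1 and Notum passed the test between 60% and control tumors with the outlying tumor included.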

How the results depend on the processing

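The count of genes called in 60% against control tumors moved with the setting, from 374 (156 higher, 218 lower) to 1056 with DESeq2 (565 and 491), 943 with only the 2 groups fitted (370 and 573), 694 with 1 surrogate variable (394 higher), 156 with the leukocyte score as a covariate (65 and 91) and 150 at an adjusted p under 0.05 (53 and 97). Without the filter on low counts 93 were higher. Leaving out 1 tumor gave 66 to 724 genes, 18 to 439 higher and 48 to 314 lower. Apart from these and the replicate block below, the settings kept the counts within 1.5 times, and limma-voom called 356 of the 374. The replicate numbers were not used to pair the tumors in the main fit. Same-numbered tumors of the 2 groups had a mean correlation of −0.16 over 4 pairs, too few to tell whether the numbers mark a shared batch. The replicate block called 178 genes (85 higher, 93 lower).

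In 60% against 40% tumors, 293 genes (132 higher, 161 lower) became 744 with DESeq2 (359 and 385), 628 with the surrogate variable (432 higher), 178 without the filter (63 higher), 151 with the leukocyte score (72 and 79) and 113 at 0.05 (48 and 65). The replicate block called 105 lower there. Leaving out 1 control, 60% or 40% tumor gave 108 to 452 genes, 48 to 193 higher and 60 to 259 lower, the fits without a 40% tumor having been added after seeing the data. mt-Nd5 did not pass in any setting (log2 fold change 0.09 to 0.28). Named genes gave 3113 further values, with 4 changes of sign, none in a called gene. Lipe turned to −0.024 with the leukocyte score and S100a9 to 0.025 with the replicate block. Leaving out 1 tumor gave −0.43 to 0.16 for S100a9, the highest without control tumor 3, and −0.013 to 0.59 for Chil3, the lowest without control tumor 1. Of 1276 medians of the 58 lists, 38 changed sign, in 12 lists. Most of these lists had a median near 0, and 5 had a median of at least 0.1 in size, the adipocyte list under 7 settings and 4 with the leukocyte score, which holds the T cell markers. With it the T cell median was −0.086, complement −0.016, chemokine receptors −0.035 and endothelial markers 0.010. The cause of these changes was not tested.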
